A study of Homo sapiens with 22 samples.

Results

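RNA-seq gene counts were compared between tumours given RMC-4550, an oral allosteric inhibitor of the phosphatase SHP2, and tumours given trametinib, an oral inhibitor of the kinases MEK1 and MEK2. The comparison took the 4 RMC-4550 tumours and the 4 Trametinib tumours, 8 of 22 tumours in all, and every gene with enough reads to be tested, 17652 of the 58735 in the count table. All tumours grew from H2110, a human lung adenocarcinoma cell line whose genotype is labelled WT, and treatment started at a volume of about 300 mm³. RMC-4550 was given at 30 mg/kg and trametinib at 0.3 mg/kg for 3 days. The remaining tumours, 6 given Vehicle, 4 given the RAS inhibitor RMC-7977 (10 mg/kg) and 4 given the MEK inhibitor Cobimetinib (3 mg/kg), entered the fit as further groups, and their levels stand beside some results. The tumours of all 5 groups come from 1 cell line, the host animal is not given in the sources used here, and nothing says whether tumours of a group grew in separate animals. What the p-values weigh is thus the variation among the sequenced samples, part of which may be technical. The doses differ and each drug was given at 1 dose, so each difference holds for these doses and this time only. This is the only pair of compounds compared here.

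SHP2, encoded by PTPN11, is a phosphatase that docks on activated receptor tyrosine kinases and their adaptors and helps the exchange factors SOS1 and SOS2 load RAS proteins with GTP. RAS then activates RAF kinases, which phosphorylate MEK1 and MEK2, which phosphorylate the ERK kinases. A SHP2 inhibitor therefore acts above RAS and on every route that SHP2 serves, whereas a MEK inhibitor acts below RAS, after the branches from RAS to its other effectors. ERK switches on genes for its own inhibitors, such as the DUSP phosphatases and the Sprouty proteins, so that the mRNA of these genes is widely used as a readout of pathway output. RIT1, named in the title of the study, is a RAS-related GTPase.

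Values are in CPM, a gene's reads as a share of the counted reads of a tumour after scaling for composition (TMM). A fold change is on the log2 scale and is RMC-4550 minus Trametinib, so that a positive value means more mRNA under RMC-4550. Total counts were between 11951272 and 15888488 in the RMC-4550 tumours and between 7761987 and 13133140 in the Trametinib tumours. Trametinib replicate 4 stood far apart from the other 21 libraries. Of its counts, 25.0% fell in ribosomal protein genes and 1.94% in mitochondrial genes, against at most 9.24% and at least 4.80% in every other library. Only 1.99% of its detected genes had 1 or 2 counts, and its most frequent count was 12, where all libraries other than this one and RMC-7977 replicate 3 had 13.4% to 22.9% and a most frequent count of 1. Its median correlation with the other libraries across genes was 0.751. RMC-4550 replicate 1 had the next highest ribosomal protein share (9.24%), a correlation of 0.936 and the strongest rank correlation of expression deviations with GC content (-0.58). That correlation was -0.48, -0.41, 0.05 and -0.10 in Trametinib replicates 1 to 4, and 0.10 to 0.28 in the other RMC-4550 tumours. Without RMC-4550 replicate 1, every RMC-4550 tumour thus lay above every Trametinib tumour in this measure. Across genes, RMC-4550 replicate 1 correlated at 0.969, 0.957, 0.939 and 0.795 with Trametinib replicates 1 to 4. With the other RMC-4550 tumours it correlated at 0.939 to 0.950. For this reason results are given with both libraries and without them.

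Output of the ERK pathway was at a similar mean level under both drugs, and it was lower than in Vehicle tumours. It was summarised as the mean log2 CPM of 9 tested MAPK output genes (DUSP4, DUSP6, SPRY2, SPRY4, ETV4, ETV5, PHLDA1, CCND1 and EPHA2), most of which encode feedback inhibitors or ETS transcription factors that ERK induces. The score was 2.77, 3.76, 3.29 and 3.43 in RMC-4550 replicates 1 to 4 and 3.66, 3.47, 3.71 and 2.08 in Trametinib replicates 1 to 4. Within each group the library that stood apart had the lowest score, and the groups overlapped. The means were 3.31 ± 0.41 (SD, n = 4) and 3.23 ± 0.77 (SD, n = 4), a difference of 0.08 with a 95% interval of -0.94 to 1.67 (2-sided exact permutation test, p = 0.857; the smallest p that 4 against 4 allows is 0.0286). Without Trametinib replicate 4 the difference was -0.30 (exact permutation p = 0.314, smallest possible 0.0571). Without RMC-4550 replicate 1 it was 0.26 (exact permutation p = 0.857), and without both it was -0.12 (exact permutation p = 0.6, smallest possible 0.1). The 95% interval reaches nearly 1 log2 unit one way and more the other, so equal output under both drugs was not shown. Vehicle tumours scored 4.81 ± 0.37 (SD, n = 6), Cobimetinib tumours 4.18 ± 0.21 (SD, n = 4) and RMC-7977 tumours 2.67 ± 0.27 (SD, n = 4).

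**Figure D1:**
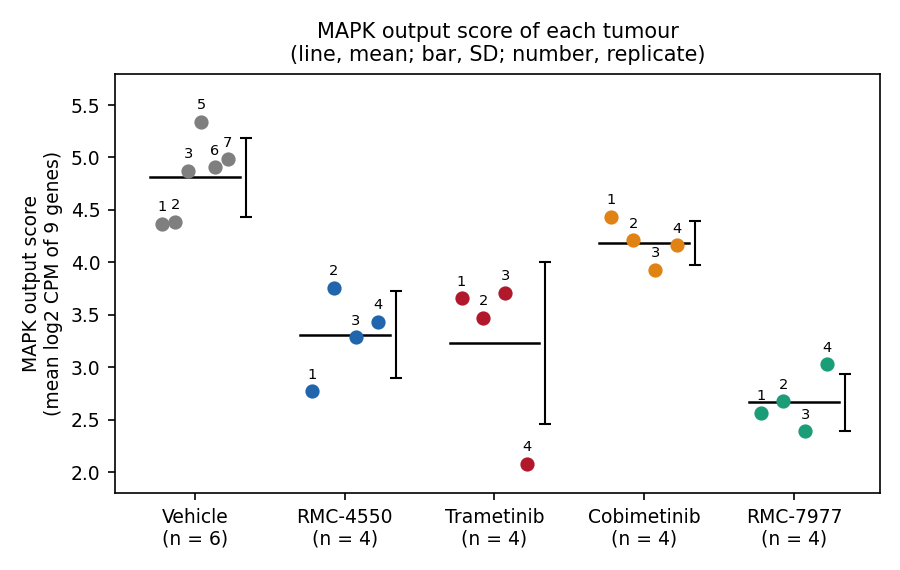
MAPK output score (mean log2 CPM of 9 ERK-induced genes) of each of the 22 tumours by group; points are tumours with their replicate number, lines are means and bars are SD. RMC-4550 tumours sit between 2.77 and 3.76 and Trametinib tumours between 2.08 and 3.71, with Trametinib replicate 4 lowest of all 22, while Vehicle tumours lie between 4.37 and 5.34.

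The genes inside the score did not all lean the same way. DUSP6, the cytoplasmic phosphatase that switches off ERK itself, had 1.12, 1.87, 0.957 and 2.46 CPM in RMC-4550 replicates 1 to 4 and 2.79, 3.28, 4.15 and 0 CPM in Trametinib replicates 1 to 4. The 4 RMC-4550 tumours lay below the first 3 Trametinib tumours and above the fourth, which had no DUSP6 read. Its log2 fold change was -0.71 ± 0.53 (SE) (edgeR adjusted p = 0.626) and -1.05 without Trametinib replicate 4. DUSP4, a nuclear phosphatase of the same family, leaned the other way, with 129, 352, 256 and 261 CPM against 178, 194, 254 and 68.0 CPM. Both libraries that stood apart were the lowest of their group, and the log2 fold change was 0.53 ± 0.30 (SE) with all tumours and 0.48 without both. Of the 9 genes, 3 had a positive and 6 a negative fold change, from -0.71 (DUSP6) to 0.70 (EPHA2, an ephrin receptor), and the median was -0.21, or -0.07 without both libraries. ETV4 and ETV5, ETS factors that ERK signalling induces, had -0.39 ± 0.50 (SE) and -0.50 ± 0.37 (SE), SPRY2 and SPRY4, which restrain signalling from receptor kinases, -0.17 ± 0.20 (SE) and -0.21 ± 0.66 (SE), and CCND1, the G1 cyclin, 0.06 ± 0.34 (SE). None of these values passed the test, and once the libraries in doubt were set aside 1 of the 9 genes was higher and 1 lower without overlap, near the shares over all genes (10.6% and 10.7%).

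No gene passed the threshold when all tumours were used. With edgeR's quasi-likelihood test and Benjamini-Hochberg adjustment at 0.05, 0 of 17652 genes were called (0%), and the lowest adjusted p was 0.0995, for BMP2. Without adjustment, 2177 genes had p under 0.05. The fit also called 0 genes without Trametinib replicate 4 (lowest adjusted p = 0.0839), without RMC-4550 replicate 1 (0.190) and without both (0.108). Other tools made calls on all 22 tumours. DESeq2 called 191 of 20220 genes (0.945%), 67 higher and 124 lower under RMC-4550, and in 82 of the 162 of these that were also tested in edgeR Trametinib replicate 4 was the highest of the 8 tumours. limma's voom with sample weights called 3733 genes (21.1%), 2158 higher and 1575 lower, in a fit that gave Trametinib replicate 2 a weight of 8.82 and Trametinib replicate 4 a weight of 0.05. In edgeR, leaving out Trametinib replicate 3 gave 41 calls (0.225%), 36 of them lower, and Trametinib replicate 4 was the highest of the 8 tumours in 32 of the 37 that were tested in both fits. Leaving out RMC-4550 replicate 3 gave 2 calls (0.011%), TCIM and ARID5B.

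The estimated spread between tumours differed with the libraries included. The edgeR fit estimated a common biological coefficient of variation of 0.37 with all tumours, 0.29 without Trametinib replicate 4 and 0.27 without both libraries. Vehicle replicate 1 also stood apart (median correlation with the other libraries 0.933, rank correlation with GC content -0.54), as did RMC-7977 replicate 3 (0.944 and -0.42). Trametinib replicate 1, which was kept, had 0.957 and -0.48. The coefficient of variation was 0.20 when Vehicle replicate 1 and RMC-7977 replicate 3 were left out as well. This last fit, chosen after seeing the data, compared 3 RMC-4550 with 3 Trametinib tumours and called 64 of 17761 genes (0.36%), 52 higher and 12 lower. Its RMC-4550 tumours had rank correlations with GC content of 0.10 to 0.28, and its Trametinib tumours had -0.48, -0.41 and 0.05. Drug and correlation with GC content thus went together in this fit and in all 3 against 3 results. Correcting the same fit for GC content gave 66 calls (0.372%), 49 higher and 17 lower, and 46 genes were in both sets with the same sign. With all tumours, the 95% interval of the fold change lay within 2-fold either way for 8257 genes (46.8%), and for the others a difference larger than 2-fold was not excluded. That share was 56.5% without Trametinib replicate 4, 39.6% without RMC-4550 replicate 1 and 53.3% without both. As a description of how often the groups separate, all 4 RMC-4550 tumours lay above all 4 Trametinib tumours for 399 genes (2.26%) and below them for 303 (1.72%). With the 2 libraries set aside, 3 against 3, the counts were 1863 (10.6%) and 1885 (10.7%).

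Trametinib replicate 4 alone decided many of the largest fold changes. In 1078 of the tested genes, 659 of them protein-coding, it had over 4 times the CPM of each of the other 7 tumours, and 47 of the 100 genes with the smallest p belonged to this set. ZAN, which encodes a sperm protein that binds the egg coat, had 0.603, 0.620, 0.163 and 246 CPM in Trametinib replicates 1 to 4 and at most 0.172 CPM in the RMC-4550 tumours. CDKN2A, which encodes the p16 inhibitor of CDK4 and CDK6, had 198, 158, 124 and 1356 CPM against 224, 141, 132 and 183 CPM. The fold change in log2 was -1.43 ± 0.51 (SE) with all tumours and 0.11 without Trametinib replicate 4. FOSL1, which encodes an AP-1 factor that ERK stabilises, had 3.09, 2.75, 1.47 and 20.2 CPM in the Trametinib tumours, and its log2 fold change went from -1.49 to -0.01 on leaving that library out. The same library had no read for 2695 tested genes, 42 of which had over 10 CPM in each of the other 7 tumours. It also had no read for DUSP6, C2CD4A and ZFP36.

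**Figure D2:**
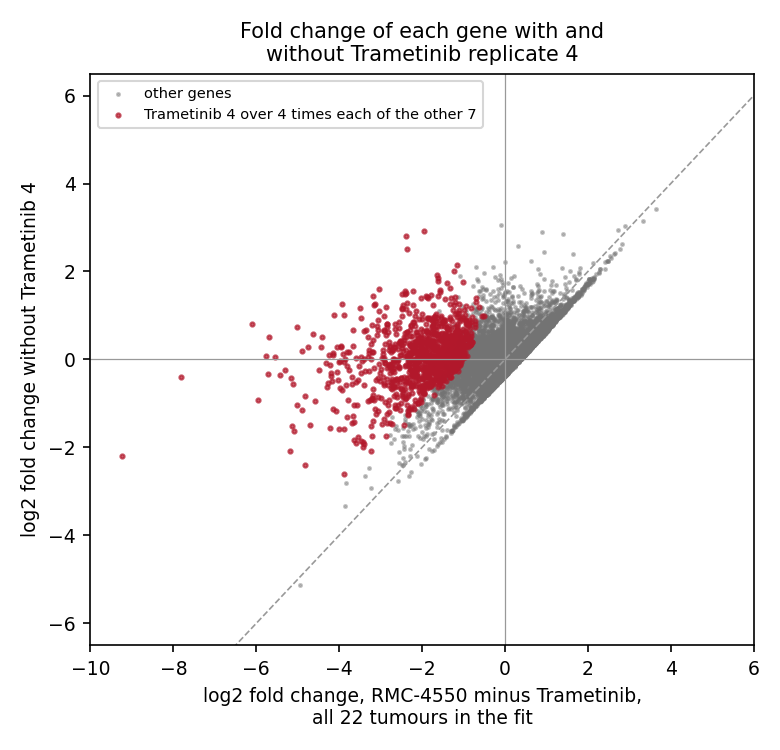
Log2 fold change (RMC-4550 minus Trametinib) of each tested gene with all 22 tumours in the fit (horizontal axis) and without Trametinib replicate 4 (vertical axis); red points are the genes in which that tumour had over 4 times the CPM of each of the other 7. The red points reach -9.24 on the horizontal axis, and most lie near 0 on the vertical axis.

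Some genes separated the drugs in every tumour, the libraries in doubt included. To describe them, 19 protein-coding genes were chosen after their values were seen: past the threshold in both fits without the 4 libraries that stood apart (with and without GC correction), groups not overlapping over all 8 tumours, and mean expression at or above 2 on the log2 CPM scale. Of these, 17 were higher and 2 lower under RMC-4550. The separation of the groups and an adjusted p under 0.05 without the 4 libraries are part of how they were chosen. Neither supports anything further, and for these genes that adjusted p is given only as a description. In the fit of all 22 tumours none of the 19 passed the threshold, and "rose" or "fell" below refers to the fit without the 4 libraries.

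Genes of secreted regulators and surface proteins were among those that rose under RMC-4550 relative to trametinib. BMP2, a secreted growth factor of the TGF-beta family (chr20:6767664-6780280 in hg38), had 78.4, 80.2, 129 and 63.6 CPM in RMC-4550 replicates 1 to 4 and 40.9, 28.5, 37.0 and 42.7 CPM in Trametinib replicates 1 to 4. Every RMC-4550 tumour lay above every Trametinib tumour, and RMC-4550 replicate 3 was highest. The log2 fold change was 1.24 ± 0.21 (SE) (edgeR adjusted p = 0.0995), 1.36 without both libraries in doubt, and its adjusted p was 0.0185 without the 4. DKK1, a secreted inhibitor of WNT signalling, had 84.2, 112, 118 and 136 CPM against 52.7, 77.4, 54.9 and 58.6 CPM, and the highest Trametinib value lay just under the lowest RMC-4550 value. CD274, which encodes the immune checkpoint ligand PD-L1 (chr9:5450503-5470566), had 43.7, 39.1, 41.0 and 48.5 CPM against 8.89, 17.5, 24.1 and 14.7 CPM. The RMC-4550 tumours were close to each other while the Trametinib tumours spread widely below them, and the log2 fold change was 1.40 ± 0.31 (SE) (edgeR adjusted p = 0.138; 0.0466 without the 4 libraries). TM4SF1, a tetraspanin-like surface protein of many carcinomas, had 879, 622, 512 and 660.1 CPM against 286, 254, 271 and 409 CPM. RMC-4550 replicate 1 was highest and Trametinib replicate 4 was the highest of its group. It had a log2 fold change of 1.13 ± 0.25 (SE), and 1.15 without both.

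Genes of an ERK phosphatase, an mRNA-decay factor and nuclear proteins were also among the 19. DUSP5, a nuclear phosphatase that removes the activating phosphates from ERK (chr10:110497838-110511544), had 11.96, 33.9, 15.2 and 28.96 CPM against 8.59, 8.69, 7.16 and 9.28 CPM. The Trametinib tumours lay together below 10 CPM, and the RMC-4550 tumours spread from just above them to the level of Vehicle, whose 6 tumours had a lowest value of 22.1, a median of 25.4 and a highest value of 41.8 CPM. The log2 fold change was 1.42 ± 0.30 (SE) (edgeR adjusted p = 0.138), 1.68 without both libraries, and the adjusted p was 0.0263 without the 4. ZFP36, which encodes the mRNA-decay factor tristetraprolin, itself an immediate early gene, had 17.0, 37.0, 24.4 and 28.4 CPM against 9.04, 12.7, 16.8 and 0 CPM. It separated the groups, but Trametinib replicate 4 had no read, and the log2 fold change of 1.45 ± 0.59 (SE) became 1.08 without that tumour. ARID5B, a DNA-binding co-activator of chromatin, had 44.9, 58.6, 36.2 and 55.0 CPM against 25.5, 24.8, 26.3 and 22.9 CPM. Trametinib values lay within 4 CPM of each other, and its log2 fold change was 0.97 ± 0.17 (SE) with and 0.97 without both libraries. C2CD4A, a small nuclear protein known as inducible by inflammatory cytokines (chr15:62066977-62070917), had 11.2, 25.8, 14.3 and 15.4 CPM against 4.97, 2.57, 4.56 and 0 CPM. Its log2 fold change was the largest of the 19, 2.41 ± 0.53 (SE), and 2.07 without Trametinib replicate 4, the tumour at 0.

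Further genes that rose encode metabolic, membrane and nuclear proteins. HGD, homogentisate dioxygenase of tyrosine breakdown, had 165, 161, 162 and 122 CPM against 93.7, 93.8, 86.3 and 57.8 CPM, with 3 RMC-4550 tumours within 4 CPM of each other and the fourth lower. Its log2 fold change was 0.88 ± 0.17 (SE) (edgeR adjusted p = 0.135) and its DESeq2 adjusted p on all tumours was 1.66e-06. GRAMD1B, a carrier of cholesterol from plasma membrane to endoplasmic reticulum, had 93.9, 178, 169.8 and 139 CPM against 76.5, 69.2, 92.8 and 21.6 CPM. RMC-4550 replicate 1 lay only just above Trametinib replicate 3, and Trametinib replicate 4 was far below the rest. The remaining ones were the volume-regulated channel subunit LRRC8D, the lysosome-positioning subunit BORCS5, the sialyltransferase ST3GAL3, the actin regulator RAPH1, the myosin MYO16, the transcription factor GLIS3 and the methyltransferase HEMK1, with log2 fold changes between 0.77 (BORCS5) and 1.15 (GLIS3).

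The genes that fell were OPN1SW and STOX1. OPN1SW, the gene of the blue cone opsin, had 4.30, 5.66, 4.71 and 4.08 CPM against 16.6, 13.4, 11.6 and 16.8 CPM, and the Trametinib tumours lay at least 2 times above the highest RMC-4550 tumour. The log2 fold change was -1.63 ± 0.36 (SE) (edgeR adjusted p = 0.138). Vehicle tumours ran from 3.85 to 18.4 CPM of OPN1SW, across the levels of both drug groups. STOX1, a winged helix factor, had 12.8, 9.59, 11.7 and 11.9 CPM against 23.95, 22.2, 17.9 and 16.5 CPM and a log2 fold change of -0.81 ± 0.21 (SE).

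The other treatments place these levels. Vehicle tumours had a median of 41.5 CPM of BMP2 (lowest 36.3, highest 44.4), 98.3 of HGD (82.3 to 116) and 26.4 of CD274 (13.8 to 31.6), so that for these genes the RMC-4550 tumours lay above all 6 Vehicle tumours and the Trametinib tumours overlapped or lay below them. For DUSP5 all Trametinib tumours lay below all Vehicle tumours (lowest 22.1 CPM). So did RMC-4550 replicates 1 and 3, all RMC-7977 tumours and Cobimetinib replicates 1, 3 and 4. Cobimetinib, the other MEK inhibitor, gave medians of 48.8 CPM for BMP2, 13.9 for CD274, 44.3 for DKK1 and 16.9 for DUSP5. RMC-7977, which acts on RAS itself, gave 32.8, 16.2, 56.5 and 15.0. For HGD the RMC-7977 tumours ran from 103 to 132 CPM and overlapped the RMC-4550 tumours (lowest 122), while the Cobimetinib tumours ran from 73.9 to 89.95. For CD274 and DKK1 no tumour of these 2 groups reached the lowest RMC-4550 tumour, and for BMP2 the highest Cobimetinib tumour (63.9 CPM) was level with it. Vehicle tumours had a median of 79.2 CPM of DKK1 and a highest value of 103, so that for this gene they overlapped the RMC-4550 tumours. The comparisons with Vehicle share those 6 tumours, so these levels are a description with no test.

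**Figure D3:**
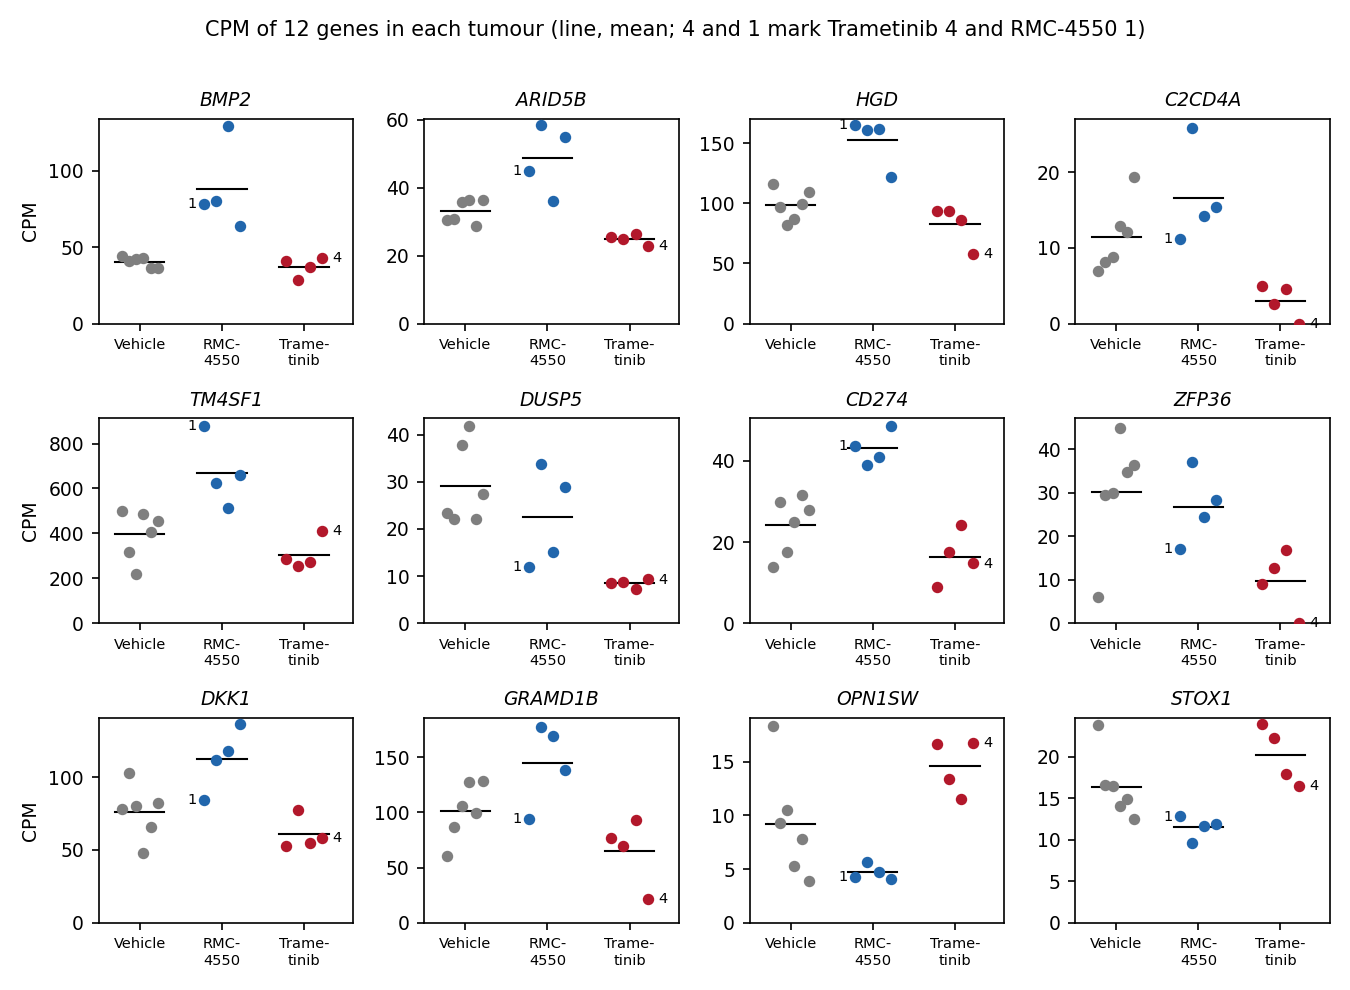
CPM of 12 of the 19 genes in the Vehicle (6 tumours), RMC-4550 (4) and Trametinib (4) groups; points are tumours, lines are group means, and 1 and 4 mark RMC-4550 replicate 1 and Trametinib replicate 4. In each panel the RMC-4550 and Trametinib points do not overlap, as the choice of genes requires, and in the BMP2 panel the RMC-4550 points (63.6 to 129) also lie above Vehicle (36.3 to 44.4).

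The mRNA of SHP2, of RIT1 and NRAS, and of the SOS and MEK proteins did not pass the test. PTPN11, which encodes SHP2 itself, had 91.8, 103, 103 and 97.6 CPM under RMC-4550 and 119, 106, 97.04 and 44.2 CPM under trametinib. Apart from Trametinib replicate 4, which was lowest, the groups overlapped, and the log2 fold change was 0.11 ± 0.22 (SE) (edgeR adjusted p = 0.875). RIT1 had 183, 122, 118 and 132 CPM against 141, 133, 127 and 81.9 CPM. RMC-4550 replicate 1 was highest and Trametinib replicate 4 lowest, and the log2 fold change of 0.20 ± 0.19 (SE) became -0.11 without both. NRAS had 181, 91.0, 91.5 and 90.1 CPM against 139, 102, 87.7 and 153 CPM, where 3 RMC-4550 tumours lay within 2 CPM of each other and replicate 1 stood at about 2 times their level. Log2 fold changes were -0.03 ± 0.17 (SE) for SOS1 and -0.03 ± 0.16 (SE) for SOS2, the exchange factors of RAS, 0.17 ± 0.21 (SE) for GAB1, an adaptor that recruits SHP2, and -0.23 ± 0.23 (SE) for SPRED1, which brings the RAS inhibitor neurofibromin to the membrane. They were 0.02 ± 0.19 (SE) and 0.15 ± 0.23 (SE) for MAP2K1 and MAP2K2, which encode the MEK kinases, and 0.08 ± 0.22 (SE) for MAPK3, which encodes ERK1.

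As lists, these components had medians between -0.17 and 0.17 with all tumours. Over all 17652 genes the median fold change was 0.04 with 53.9% positive, and without both libraries it was -0.00 with 49.8% positive. Correcting the fit of all tumours for GC content moved that median to -0.06. Of 17 RAS, RAF, MEK and ERK genes 11 were positive (median 0.08, and -0.03 without both libraries). Of 19 SHP2 partners and RAS regulators 13 were positive (median 0.17), and without both libraries 8 were (median -0.01). In that list IRS2, the insulin receptor substrate, had 0.96 ± 0.35 (SE) and LZTR1, an adaptor for the ubiquitination of RAS-family GTPases including RIT1, 0.69 ± 0.31 (SE). RASGRP1, an exchange factor of RAS, was lowest of that list at -1.07 ± 0.62 (SE), or -0.53 without Trametinib replicate 4. Of 7 Sprouty and SPRED genes 1 was positive (median -0.17, and -0.01 without both). Of 14 receptor tyrosine kinases 8 were positive (median 0.11), and without both 10 were (median 0.27), while with GC correction of all tumours the median was -0.13. The receptor AXL had 9.38, 17.8, 16.1 and 29.2 CPM against 27.6, 30.2, 37.4 and 67.7 CPM, with Trametinib replicate 4 highest and RMC-4550 replicate 1 lowest, and a log2 fold change of -1.16 ± 0.38 (SE), or -0.59 without both. DDR2, a collagen receptor, had 2.41, 2.06, 2.50 and 1.27 CPM against 4.75, 3.72, 4.72 and 5.44 CPM, and the groups did not overlap. The EGF receptor ligands, 8 genes of which 5 were positive with a median of 0.12 and 2 without both libraries (median -0.09), included AREG at 0.39 ± 0.42 (SE) and EREG at 0.32 ± 0.44 (SE).

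**Figure D4:**
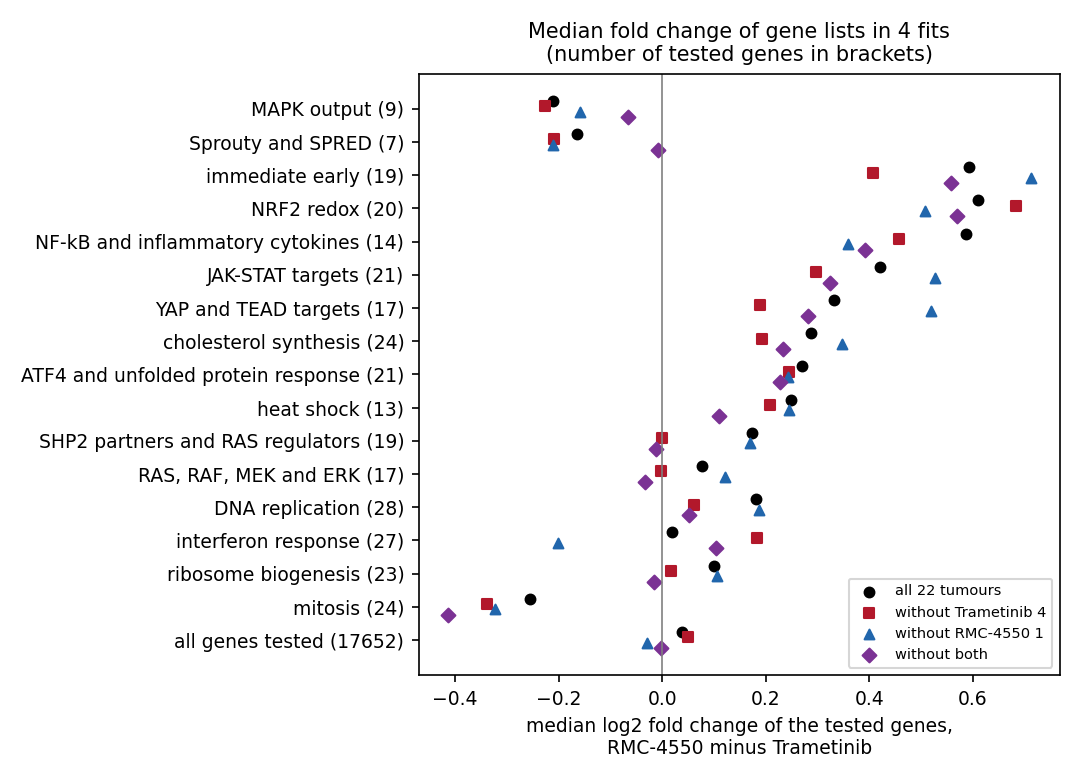
Median log2 fold change (RMC-4550 minus Trametinib, horizontal axis) of the tested genes of 16 gene lists and of all genes tested, in 4 fits: all 22 tumours (circles), without Trametinib replicate 4 (squares), without RMC-4550 replicate 1 (triangles) and without both (diamonds). NRF2 redox genes (0.61 with all tumours) and immediate early genes (0.59) lie farthest to the right and mitosis genes (-0.25) to the left, while all genes lie at 0.04.

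With all tumours, the list with the largest positive median held genes of redox metabolism that the transcription factor NRF2 is known to induce, and no member of it passed the test. NRF2 binds antioxidant response elements in promoters and drives enzymes that make NADPH and reduce thioredoxin and glutathione. Some lung adenocarcinomas carry a constantly active NRF2. Of the 20 genes 18 had a positive fold change, and 20 of 20 had one without both libraries. The median was 0.61 with all tumours, 0.68 without Trametinib replicate 4, 0.51 without RMC-4550 replicate 1 and 0.57 without both. Without adjustment 14 of the 20 had p under 0.05, beside 2177 of all 17652 genes, and with adjustment none did. The groups did not overlap for 7 of the 20 over 4 against 4 tumours, all with RMC-4550 higher, beside 2.26% of all genes. Over 3 against 3 tumours 13 of the 20 did not overlap, again with RMC-4550 higher in each, beside 10.6% of all genes. The mean log2 CPM of the list was 8.12, 7.91, 7.95 and 7.63 in RMC-4550 replicates 1 to 4 and 7.48, 7.24, 7.199 and 7.17 in Trametinib replicates 1 to 4. As summed CPM the groups overlapped, with 16945, 11429, 11877 and 9661 against 9646, 9060, 7686 and 12014, Trametinib replicate 4 being highest of its group. The list was chosen with earlier results of these data known, and it was given no test.

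TXNRD1, thioredoxin reductase, had 711, 802, 711 and 559 CPM under RMC-4550 against 498, 419.6, 398 and 230.4 CPM under trametinib. Every RMC-4550 tumour lay above every Trametinib tumour, and Trametinib replicate 4 was lowest. Its log2 fold change was 0.85 ± 0.25 (SE) (edgeR adjusted p = 0.201) and 0.66 without both libraries. ME1, the cytosolic malic enzyme that makes NADPH, had 161, 94.7, 111 and 70.6 CPM against 69.2, 61.6, 61.5 and 20.6 CPM. RMC-4550 replicate 1 was highest and Trametinib replicate 4 lowest, so that the log2 fold change of 1.03 ± 0.29 (SE) became 0.53 without both. TKT, transketolase of the pentose phosphate pathway, had 566, 678, 738 and 601 CPM against 487, 388, 459 and 326 CPM, and SRXN1, sulfiredoxin, 18.8, 16.9, 16.4 and 14.4 CPM against 12.4, 6.82, 7.16 and 10.4 CPM. Neither overlapped, and the log2 fold changes were 0.64 ± 0.19 (SE) and 0.85 ± 0.26 (SE). SLC7A11, the cystine importer of this programme, had 502, 308, 297 and 280.4 CPM against 242, 149, 163 and 114 CPM, with RMC-4550 replicate 1 far above the rest and a log2 fold change of 1.05 ± 0.34 (SE), or 0.68 without both. In Vehicle tumours TXNRD1 and ME1 lay between or beside the levels of the drug groups. They had a median of 493 CPM of TXNRD1 (362 to 706) and 65.5 CPM of ME1 (56.1 to 93.0).

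The promoters of TXNRD1 and ME1 are shown because both hold the letters of the antioxidant response element core within 250 bases before a RefSeq start site. The motif searched was TGACNNNGC on both strands, where N is any base. The sequences below are from RefSeq on GRCh38.p14, read 5′ to 3′ on the strand of the gene, and capitals mark the motif (on the opposite strand in the second TXNRD1 window). TXNRD1 has a pair of windows with the motif, at different start sites.
TXNRD1, chr12:104215529-104215778, plus strand: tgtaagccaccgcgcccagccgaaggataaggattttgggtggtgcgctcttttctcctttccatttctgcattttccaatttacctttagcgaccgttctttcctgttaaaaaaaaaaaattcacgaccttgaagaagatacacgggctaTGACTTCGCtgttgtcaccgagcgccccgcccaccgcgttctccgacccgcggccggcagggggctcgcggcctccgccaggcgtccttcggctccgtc
TXNRD1, chr12:104286782-104287031, plus strand: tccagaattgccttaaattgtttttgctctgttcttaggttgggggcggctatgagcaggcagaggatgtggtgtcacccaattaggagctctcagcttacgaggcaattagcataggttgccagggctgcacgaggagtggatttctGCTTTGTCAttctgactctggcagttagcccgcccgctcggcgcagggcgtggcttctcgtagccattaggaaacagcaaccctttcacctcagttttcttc
ME1, chr6:83431052-83431301, minus strand: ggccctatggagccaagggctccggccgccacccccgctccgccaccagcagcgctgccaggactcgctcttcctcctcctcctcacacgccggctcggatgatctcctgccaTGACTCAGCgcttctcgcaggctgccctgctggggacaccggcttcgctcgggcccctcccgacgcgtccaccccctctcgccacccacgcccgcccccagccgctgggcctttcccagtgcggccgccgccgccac
The motif lay -99 to -91 and -102 to -94 bases from the start sites in TXNRD1 and -137 to -129 in ME1. The match in ME1 also contains TGACTCA, the letters of an AP-1 site. Of the 14 genes of the list that matched the promoter table, 4 held the antioxidant response element core (GCLM, ME1, PGD and TXNRD1), in 5 of the 16 promoters of the 14 genes, beside 10.9% of all 35116 promoters in the table. Among the 15 of the 19 genes described first that matched, 3 held it (MYO16, TM4SF1 and ZFP36), in 3 of the 19 promoters of the 15, and 0 held TGACTCA, which 4.20% of all promoters hold. A match describes the letters of the window only.

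Genes of mitosis leaned the other way. Of 24 genes 22 had a negative and 2 a positive fold change (median -0.25), and without both libraries 1 was positive (median -0.41). The groups did not overlap for 2 of the 24 over 4 against 4 tumours, both with RMC-4550 lower (1.72% of all genes), and for 9 over 3 against 3, again with RMC-4550 lower in each (10.7% of all genes). TOP2A, the topoisomerase that untangles chromosomes, had 344, 364, 301 and 279.7 CPM under RMC-4550 against 518, 453, 388 and 453 CPM under trametinib, and AURKA, the spindle-pole kinase, 73.4, 60.3, 65.6 and 48.2 CPM against 104, 76.6, 81.7 and 90.9 CPM. These were the genes without overlap, with log2 fold changes of -0.49 ± 0.21 (SE) and -0.51 ± 0.21 (SE) (edgeR adjusted p = 0.333 and 0.325). CDC20, which activates the anaphase-promoting complex, had 75.8, 74.2, 90.7 and 55.9 CPM against 119.8, 85.7, 85.3 and 134 CPM and a log2 fold change of -0.52 ± 0.19 (SE), and CENPA, the centromeric histone, -0.59 ± 0.24 (SE). Trametinib replicate 1 was the highest of its first 3 tumours for these 4 genes. The mean log2 CPM of the list was 6.31, 6.10, 6.36 and 5.76 in the RMC-4550 tumours and 6.79, 6.40, 6.29 and 6.06 in the Trametinib tumours, so that as a mean the groups overlapped. DNA replication genes, by contrast, had 22 of 28 positive (median 0.18, and 0.05 without both libraries).

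**Figure D5:**
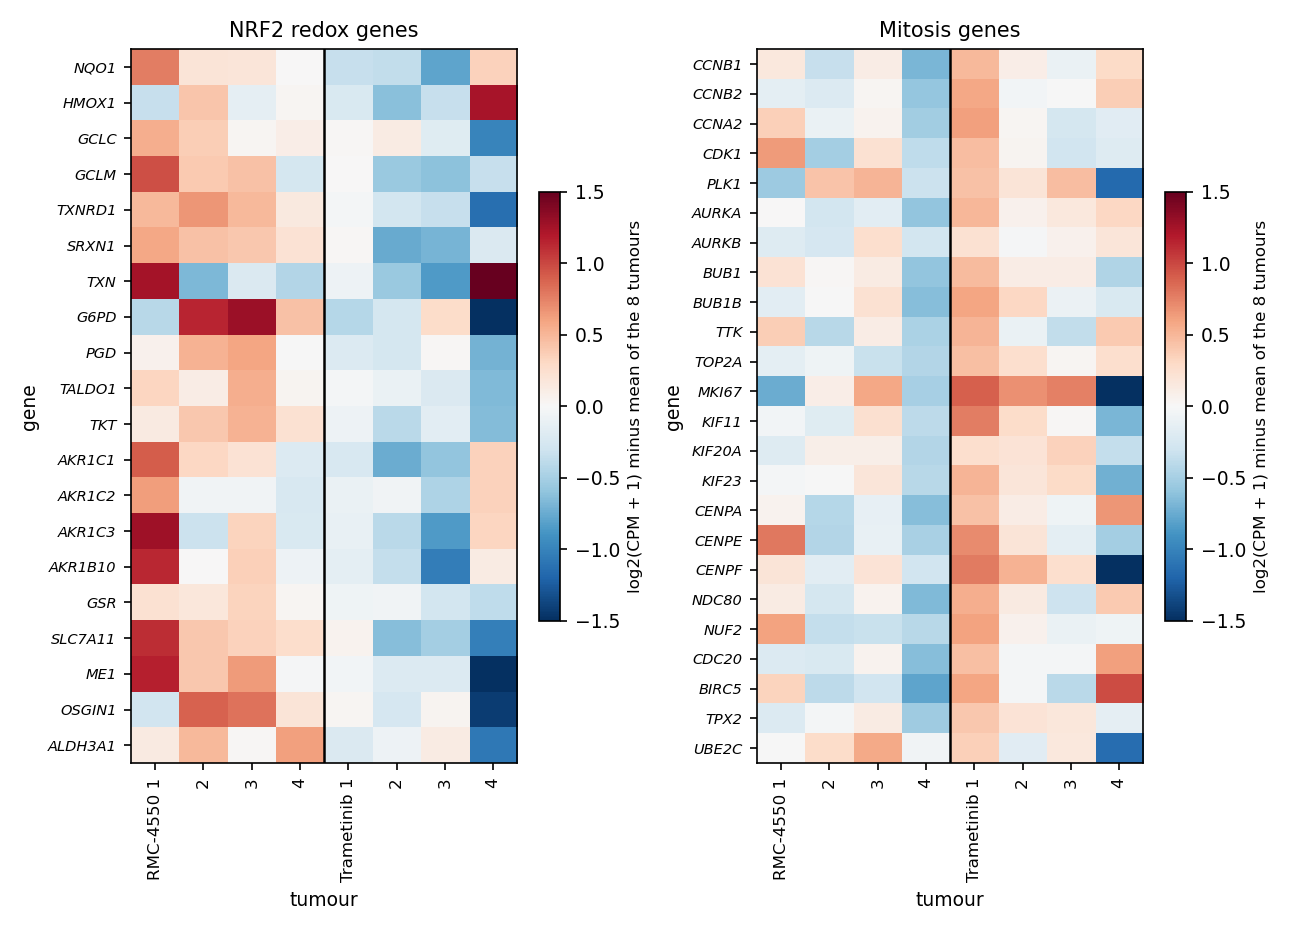
Each cell is a tumour's log2(CPM + 1) of a gene minus the gene's mean over the 8 tumours (colours stop at -1.5 and 1.5), for 20 NRF2 redox genes (left) and 24 mitosis genes (right), with RMC-4550 replicates 1 to 4 left of the line and Trametinib replicates 1 to 4 right of it. On the left the RMC-4550 columns are mostly red, and Trametinib replicate 4 holds both the strongest red and the strongest blue cells of its group. On the right Trametinib replicate 1 is the reddest column.

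Immediate early genes, which are transcribed within minutes of a growth signal, leaned towards RMC-4550. Of 19 genes 14 were positive (median 0.59, 0.41 without Trametinib replicate 4, 0.71 without RMC-4550 replicate 1 and 0.56 without both libraries). With all tumours 7 of the 19 had an unadjusted p under 0.05, beside 2177 of all 17652 genes, and none passed the adjusted threshold. Correction for GC content lowered the median to 0.37 with all tumours and to 0.28 without the 4 libraries, where it was 0.57 uncorrected. The groups did not overlap for 1 gene over 4 against 4 tumours (2.26% of all genes) and for 6 over 3 against 3 (10.6%), all with RMC-4550 higher. NR4A1, an orphan nuclear receptor, had 25.1, 130.3, 78.1 and 85.6 CPM against 31.3, 36.1, 55.7 and 13.0 CPM. RMC-4550 replicate 1 lay within the Trametinib range, and the log2 fold change was 1.23 ± 0.50 (SE), or 1.26 without both, with an edgeR adjusted p of 0.0370 without the 4 libraries. NR4A2, its close relative, had 0.75 ± 0.28 (SE) and ATF3, a stress-induced bZIP factor, 0.75 ± 0.24 (SE). EGR1, the zinc finger factor most used as a marker of ERK activity, had 1.72, 7.08, 1.33 and 3.796 CPM against 1.96, 2.66, 3.09 and 0 CPM, with overlap and a log2 fold change of 0.80 ± 0.72 (SE). MYC had 64.7, 74.8, 81.3 and 79.1 CPM against 86.0, 77.7, 86.6 and 53.9 CPM and a log2 fold change of -0.02 ± 0.23 (SE).

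Targets of inflammatory and cytokine signalling leaned the same way. Of 14 NF-kB and inflammatory cytokine genes 12 were positive (median 0.59, 0.36 without RMC-4550 replicate 1 and 0.39 without both libraries). The groups did not overlap for 2 over 4 against 4 tumours (2.26% of all genes) and for 4 over 3 against 3 (10.6%), all with RMC-4550 higher. TNFAIP3, the A20 protein that restrains NF-kB, had 28.9, 50.9, 31.8 and 47.5 CPM against 20.9, 16.0, 29.6 and 8.64 CPM. RMC-4550 replicate 1 lay within the Trametinib range, and the log2 fold change was 1.07 ± 0.33 (SE) (edgeR adjusted p = 0.205). The chemokines CXCL1, CXCL3 and CCL20 had at most 14.4 CPM in any of the 8 tumours, with log2 fold changes of 1.09 ± 0.38 (SE), 1.48 ± 0.53 (SE) and 1.13 ± 0.51 (SE). Of 21 JAK-STAT targets 19 were positive (median 0.42, and 0.32 without both). Of these targets 1 did not overlap over 4 against 4 tumours (2.26% of all genes) and 6 over 3 against 3 (10.6%), all with RMC-4550 higher. SOCS3, the feedback inhibitor induced by STAT3, had 25.5, 36.4, 22.3 and 29.3 CPM against 13.8, 6.82, 13.2 and 4.80 CPM. All RMC-4550 tumours lay above all Trametinib tumours, with a log2 fold change of 1.54 ± 0.44 (SE) (edgeR adjusted p = 0.199) and 1.38 without both. SOCS2 and CISH, feedback inhibitors of STAT5, had 0.80 ± 0.32 (SE) and 1.41 ± 0.56 (SE), and FGG, the acute-phase fibrinogen gamma chain, 0.87 ± 0.28 (SE). STAT3 itself had 0.42 ± 0.27 (SE).

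Interferon-response genes did not lean as a list, and its leading members pointed both ways. Of 27 genes 14 were positive (median 0.02, 0.18 without Trametinib replicate 4 -0.20 without RMC-4550 replicate 1, and -0.17 with GC correction of all tumours). OASL, an antiviral oligoadenylate synthetase-like protein, had 2.84, 1.93, 2.73 and 2.74 CPM under RMC-4550 against 16.4, 3.81, 11.8 and 23.5 CPM under trametinib. The RMC-4550 tumours lay together below all Trametinib tumours, which themselves spread about 6-fold, and the log2 fold change was -2.43 ± 0.55 (SE) (edgeR adjusted p = 0.138), or -2.12 without both libraries. IFIT3, another antiviral effector, had -1.17 ± 0.43 (SE). BST2, the tetherin of enveloped viruses, had 61.0, 71.6, 99.1 and 53.5 CPM against 34.9, 33.2, 33.2 and 59.8 CPM. Trametinib replicate 4 was the only Trametinib tumour to reach the RMC-4550 range, and the log2 fold change was 0.83 ± 0.29 (SE), or 1.10 without it. IFITM1 had 0.89 ± 0.34 (SE) and the interferon-induced factor IRF1 0.71 ± 0.30 (SE).

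Sterol, lipid and stress genes had smaller positive medians. Of 24 cholesterol synthesis genes 18 were positive (median 0.29, and 0.23 without both libraries). The groups did not overlap for 4 over 4 against 4 tumours and for 8 over 3 against 3, all with RMC-4550 higher (2.26% and 10.6% of all genes). TM7SF2, a sterol reductase, had 9.98, 19.6, 20.3 and 18.3 CPM against 7.23, 8.07, 11.5 and 5.60 CPM. RMC-4550 replicate 1 was the only one of its group to lie within the Trametinib range, and the log2 fold change was 1.07 ± 0.27 (SE) (edgeR adjusted p = 0.159; 0.0411 without the 4 libraries). MVD and INSIG1, an enzyme and a sterol sensor of the same pathway, had 0.71 ± 0.27 (SE) and 0.70 ± 0.27 (SE). EBP, a sterol isomerase, had 371 CPM in Trametinib replicate 4 and at most 80.0 CPM in the other 7 tumours, and its log2 fold change without that tumour was 0.15. CD36, a fatty acid transporter, had 494, 205, 203 and 214 CPM against 148, 123, 105 and 83.5 CPM. The groups did not overlap, but RMC-4550 replicate 1 was over 2 times its group's other tumours, and the log2 fold change of 1.28 ± 0.32 (SE) became 0.73 without both. Of 21 genes of the ATF4 and unfolded protein response 19 were positive (median 0.27, and 0.12 with GC correction of all tumours), and of 13 heat shock genes 11 (median 0.25, and 0.11 without both libraries). Of 17 YAP and TEAD targets 14 were positive (median 0.33, 0.19 without Trametinib replicate 4 and 0.52 without RMC-4550 replicate 1). In that list CTGF, a secreted matrix protein, had 3.96, 14.7, 3.61 and 17.3 CPM against 2.41, 3.10, 3.66 and 0 CPM, with RMC-4550 replicates 1 and 3 close to the Trametinib tumours and a log2 fold change of 2.06 ± 0.65 (SE).

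Marker genes of other cell types were looked at because a tumour holds more than carcinoma cells. The tumours were xenografts of a human cell line, and the processing notes name only the human build hg38. Reads of host cells would thus be counted only where they align to human genes, which was not tested. The levels below therefore do not measure how much of a tumour is host tissue. In bulk tumours, fewer cells of a type and less RNA per cell also cannot be told apart. The epithelial keratin genes KRT7, KRT8, KRT18 and KRT19 and EPCAM were present in all 8 tumours, with EPCAM between 290.1 and 515 CPM. Of the lung markers, NKX2-1 lay between 0.147 and 13.7 CPM and SFTPB between 0.589 and 30.4 CPM, so that defining markers of the alveolar lineage were near 0 in some tumours. No lymphoid and no red-cell marker gene had enough counts in enough tumours to be tested, and HBA1, HBA2, HBB, C1QA, C1QB, MS4A1, NKG7 and THY1 were at 0 in all 8. As summed CPM, Trametinib replicate 4 stood apart on some of these lists too, but not on all. It had 128 CPM of summed fibroblast and pericyte markers and 190 CPM of skeletal muscle markers, below the highest RMC-4550 tumour (232 and 202 CPM). These sums rest largely on a few genes, of which COL1A1 (49.9 CPM) and TTN (19.5 CPM) were lowest in this tumour. As the mean log2 CPM of the 3 tested members of each list, it was the highest of the 8 tumours on both. It had 3.72 and 4.91, where the highest RMC-4550 values were 3.06 and 4.19. Its summed lymphoid markers had 11.04 CPM (at most 1.66 in the other 7), its red-cell markers 52.96 CPM, all from SLC4A1 (at most 0.886), and its adipocyte markers 139 CPM (at most 41.9). Of 18 myeloid markers 7 were tested and 2 were positive (median -0.76, 0.04 without Trametinib replicate 4, -1.59 without RMC-4550 replicate 1 and -0.43 without both). Their summed level was 134 to 913 CPM in the RMC-4550 tumours and 152 to 5040.2 CPM in the Trametinib tumours, highest in replicate 4, where S100A9 alone had 4559 CPM. LAPTM5, a lysosomal protein of blood cells, had 0.430, 0.901, 0.957 and 1.34 CPM against 7.31, 2.92, 4.64 and 5.28 CPM without overlap, while MRC1, the macrophage mannose receptor, had 47.8, 21.2, 60.0 and 39.1 CPM against 7.91, 15.9, 12.9 and 14.6 CPM, also without overlap. LAPTM5 was thus lower and MRC1 higher under RMC-4550, with log2 fold changes of -2.45 ± 0.62 (SE) and 1.72 ± 0.64 (SE) (edgeR adjusted p = 0.159 and 0.279). The 12 endothelial markers summed to 47.7 to 74.7 CPM under RMC-4550 and 59.3 to 296 CPM under trametinib, highest in replicate 4. The part of other cell types in the cytokine, interferon and redox genes above was not tested.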

How the data were processed

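Per the labels, total RNA of xenograft tumours was made into strand-specific libraries that mark strand with dUTP. The deposited table holds raw counts per gene. The submitters' processing notes name HISAT2 2.0.5 and fastp, the hg38 build, the counter featureCounts 1.5.0-p3, and edgeR 3.22.5 and DESeq2 1.20.0, with no settings. Which strand setting the authors used for counting is not given in the sources used here, so reads of overlapping or antisense genes may be shared. Here, genes passing filterByExpr (minimum count 10, 5 groups, 17652 genes, 99.7% of counts) were fitted over all 22 tumours with edgeR 4.0.16 (TMM, robust quasi-likelihood) in R 4.3.3, with Benjamini-Hochberg adjustment and a threshold of 0.05. DESeq2 1.42.0, limma 3.58.1 voom, other scalings, filters, replicate blocks, a GC correction (GENCODE 29, lowess span 0.3) and left-out tumours were alternatives. The fitting code was tested on simulated data. Columns left unmapped were 0. The MAPK score used log2 CPM with a prior count of 2, and its interval holds the shifts that the exact permutation test did not reject. Named genes were to be up to 12 each way past the threshold with groups not overlapping, which gave 0 genes in each of the 3 fits, plus up to 4 members of each list with the smallest adjusted p and a fixed set of pathway genes, of which a member is not reported here. The 19 genes described first, the genes high in Trametinib replicate 4 alone, SLC7A11, MUC5AC and the cell type markers with a fold change were named after their values were seen. Members and lists were chosen with earlier results of these data known.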

Additional observations from a re-analysis of the deposited data

Results flagged for a closer look

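In 204 checks, the CPM of each gene named here and the MAPK output score were examined in each of both groups of 4. In 25 of them, the gap of 1 tumour to its nearest neighbour took a share of the group's range above Dixon's 95% critical value. Chance gives this in about 1 of 20 groups of independent, normally distributed values. The genes here share the same libraries and many were chosen on their values, so that rate need not hold. Trametinib replicate 4 was the tumour with the gap in 15 of the 25 and RMC-4550 replicate 1 in 4. Of those 15, 6 (ZAN, POU2F2, LDB3, HAPLN2, SRRM3 and MASP2) were genes named because that tumour alone was high, so that the choice fixed them. Without these genes 18 of 192 checks had such a tumour, and it was Trametinib replicate 4 in 9. Trametinib replicate 4 stood above its group for ZAN (246 CPM), POU2F2 (439.9), LDB3 (28.3), HAPLN2 (25.0), SRRM3 (46.1), MASP2 (164), CCND2 (116), CDKN2A (1356), EBP (371), FOSL1 (20.2), BST2 (59.8) and SOCS2 (10.7). It stood below its group for LRRC8D (5.92) and ME1 (20.6) and for the MAPK output score (2.08). Trametinib replicate 3 was apart for HEMK1 (12.7) and SFTPD (7.73). RMC-4550 replicate 1 stood above its group for NRAS (181), CD36 (494), SLC7A11 (502) and ZAN (0.172). Other RMC-4550 tumours were apart for HGD (122), SOS1 (88.7), SOCS2 (6.44) and OASL (1.93).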

How the results depend on the processing

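The count of called genes, 0 with all tumours, stayed 0 with RLE scaling, without a count filter, with a mean CPM of at least 1, with only the 2 groups, with either replicate block, without both libraries in doubt, and with GC correction of that fit. It was 191 with DESeq2 (67 higher, 124 lower), 1 with library size alone (higher), 3733 with limma voom sample weights (2158 higher, 1575 lower), and 2 with GC correction, with or without the replicate block (1 higher, 1 lower). Leaving out 1 tumour gave 0 to 41 calls (0 to 5 higher, 0 to 36 lower). Settings chosen after seeing the data gave 64 (52 higher, 12 lower) without the 4 libraries apart, 66 (49 and 17) with GC correction of that fit, 3 (3 higher, 0 lower) with only the 2 groups without both libraries, 35 (25 and 10) with DESeq2 without both, and 5 (4 and 1) with GC correction without Trametinib replicate 4. The MAPK score difference, 0.08, turned to -0.10 with 4 genes only and to -0.12 without both libraries, and ranged from -0.30 to 0.26 when 1 tumour was left out. The cause of these shifts was not tested. Same-numbered tumours of the 2 groups had deviations correlated at 0.07, 0.10, 0.22 and -0.08, and not every tumour correlated best with its own number. The labels do not say whether the numbers pair the samples, and these correlations cannot settle it. With the replicate block, the fit of all tumours again called 0 genes, and the score difference was 0.08 (exact permutation p = 0.875, smallest possible 0.125). Of 2597 alternative values for 101 named genes, 162 (67 genes) passed the threshold, 64 of them under voom weights and 0 of 298 under a replicate block. EBP turned to 0.16 under voom weights, and 118 values differed in sign from the main value. Genes with few counts, such as SPRY4 and the chemokines, carry the widest errors.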

Other observations

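Lists not described above had medians near that of all genes or moved with single libraries. Of 20 PI3K and FOXO targets 12 had a positive fold change (median 0.24, and 0.06 without both libraries in doubt). GADD45A, a stress-induced growth arrest gene, had 14.1, 15.4, 11.9 and 15.2 CPM under RMC-4550 and 8.36, 8.597, 4.88 and 10.4 CPM under trametinib, without overlap, while TSC22D3, a glucocorticoid- and FOXO-induced leucine zipper gene, had 92.6, 113, 118 and 138 CPM against 158, 182, 159.6 and 82.7 CPM. The 4 RMC-4550 values of TSC22D3 lay below those of the first 3 Trametinib tumours, and RMC-7977 tumours had 376 to 582 CPM. Of 16 G1 cyclins and inhibitors 6 were positive (median -0.09, and 0.04 without Trametinib replicate 4). CDK6, the G1 kinase, had 35.9, 20.8, 25.0 and 28.96 CPM against 17.3, 15.0, 15.0 and 11.2 CPM and CDKN2C, the p18 inhibitor of CDK4 and CDK6, 24.9, 29.2, 26.3 and 23.0 CPM against 46.3, 33.0, 31.2 and 91.4 CPM. Neither overlapped, CDK6 was higher and CDKN2C lower under RMC-4550, and the log2 fold changes were 0.92 ± 0.27 (SE) and -0.96 ± 0.26 (SE) (edgeR adjusted p = 0.202 and 0.193; -0.49 for CDKN2C without Trametinib replicate 4).

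Of 22 alveolar and airway differentiation genes 12 were positive (median 0.08, and 0.26 without both libraries). MUC5AC, the gel-forming airway mucin, had 167, 1849.6, 1003 and 1187 CPM against 122, 215, 640.2 and 77.8 CPM. RMC-4550 replicate 1 lay within the Trametinib range and the other 3 above it, and Vehicle tumours ran from 153 to 2554 CPM. SFTPD, a surfactant protein, had 3.61, 5.73, 3.02 and 5.69 CPM against 10.2, 9.93, 7.73 and 10.2 CPM, with all RMC-4550 tumours below all Trametinib tumours and a log2 fold change of -1.07 ± 0.35 (SE). LDHA, lactate dehydrogenase A, had 1012, 1073, 947 and 1072 CPM against 1509, 1356, 1212 and 2319 CPM, also without overlap, with -0.64 ± 0.21 (SE), or -0.38 without Trametinib replicate 4. LDHA belongs to a list of 27 glycolysis and hypoxia genes with a median of 0.09 (0.01 without both), and 17 apoptosis genes had a median of 0.06 (0.00 without both). None of these genes passed the threshold with all tumours.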
